A study of Homo sapiens with 8 samples.

Results

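The interferon-stimulated genes described here are ISG15, IFI6, IFI27, IFIT1, IFIT2, IFIT3, IFIT5, IRF9 and IFITM3, 9 genes listed by name. Of the 9, 8 have a row among the 14526 genes of the deposited RPKM table, and IFIT2 has no row. RPKM is the number of reads on a gene scaled to its length and to the size of the library. RNA came from cells labelled HepG2, a line from a human liver carcinoma, grown in DMEM with 10% FBS. The 4 SB-treated replicates received 10 mM sodium benzoate (SB), a salt used as a food preservative, for 24 h, and the 4 control replicates did not. Whole reads recovered from the RPKM values totalled between 36990075 and 44492795 per control library and between 37161781 and 44878414 per SB-treated library.

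Control replicate 1 stands apart from the other controls. Among the 12545 genes with a mean of at least 1 RPKM it was the control farthest from the control median for 71.8%, and among the interferon-stimulated genes it was so for 5 (ISG15, IFI6, IFI27, IFIT5 and IRF9). Values without it are given below for these 5. The label of the cells was set against 19 genes characteristic of hepatocytes, of which 18, among them ALB, AFP and APOA1, have no row in the table. TF has a row, at 0.192 ± 0.0188 RPKM (SD, n = 4) in control and 0.379 ± 0.0748 RPKM (SD, n = 4) in SB-treated cells, and it passed the filter described below through the SB-treated libraries only. The hepatocyte markers thus did not bear out the label of the cells, and the reason was not tested. Of 10 immune cell markers only LYZ has a row, at 0.926 ± 0.0695 RPKM (SD, n = 4) in control and 0.925 ± 0.116 RPKM (SD, n = 4) in SB-treated cells. Of 8 fibroblast markers 4 have a row, and their sum, most of it COL1A1, was 6.63, 8.85, 8.56 and 8.97 RPKM in control replicates 1 to 4 and 6.98, 6.89, 6.62 and 6.94 RPKM in SB-treated replicates 1 to 4. Control replicates 2 to 4 lay above every SB-treated library and control replicate 1 among them. Of the 4 genes 1 was called lower and 1 higher, the latter past the same filter through the SB-treated libraries only. The part of these markers in the values below was not tested, and in bulk RNA a change in the share of cells of a type cannot be told apart from a change per cell.

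Interferons are secreted proteins that bind receptors on the cell surface, whose kinases JAK1 and TYK2 phosphorylate STAT proteins. With IRF9 these form the complex ISGF3, which enters the nucleus and binds the interferon-stimulated response element in the promoters of its target genes. Many of the targets are kept at a low level without interferon and encode proteins that hinder viral entry, translation or replication.

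The core of the response element is TTTC followed after any 2 bases by a second TTTC. It was searched on both strands in the 250 bases before the RefSeq starts held for each gene in a promoter set (GRCh38.p14). It was found for 7 of the 8 genes with a row, all but IRF9. Of 27305 genes with a promoter in the same set, 3.71% hold the core before at least 1 start. Of 39 further antiviral effector genes in that set 23 hold it, and of 12 genes of MHC class I presentation 7. The stretches around the cores are shown because the listed genes share them whichever way they moved. The 4-base parts of each core are in capitals, all run 5′ to 3′ on the strand of the gene, and a core on the opposite strand reads GAAA in them. In the order printed they lie at chr1:1013369-1013414 (plus strand), chr1:27672261-27672363 (minus), chr14:94110613-94110665 (plus), chr10:89392492-89392544 (plus), chr10:89327826-89327899 (plus), chr10:89414508-89414567 (plus) and chr11:320871-320927 (minus).
ISG15: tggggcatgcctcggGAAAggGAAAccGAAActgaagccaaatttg
IFI6: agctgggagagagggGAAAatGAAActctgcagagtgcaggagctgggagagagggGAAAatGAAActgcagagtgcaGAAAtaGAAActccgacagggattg
IFI27: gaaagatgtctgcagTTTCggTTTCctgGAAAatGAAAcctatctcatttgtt
IFIT1: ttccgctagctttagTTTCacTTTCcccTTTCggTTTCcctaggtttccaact
IFIT3: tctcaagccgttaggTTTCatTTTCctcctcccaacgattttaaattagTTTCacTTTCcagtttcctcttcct
IFIT5: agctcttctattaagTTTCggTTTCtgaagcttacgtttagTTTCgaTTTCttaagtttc
IFITM3: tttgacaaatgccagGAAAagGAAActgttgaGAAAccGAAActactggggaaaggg

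ISG15 holds 2 cores that overlap, beginning at positions -113 and -107 from the start. IFI6 holds 3, at -156, -115 and -93, and the first 2 lie inside near-identical stretches of the promoter. IFI27 holds 1 on each strand, at -108 and -95, and they also lie before a second RefSeq start of this gene. Both starts lie inside the gene span (chr14:94105894-94116690), so these cores do not lie before the first base of IFI27. In IFIT1 the cores begin at -116 and -103, on the strand of the gene. IFIT3 has a pair at -156 and -122 before its first start and another pair before a second start. The core nearest to a start is that of IFIT5 at -19, and the other core of IFIT5 is at -45. IFITM3 holds its cores at -52 and -35. A match describes these letters and not the binding of a factor, and for IRF9 the lack of a match says only that the letters are not in this window. Over the RPKM table the core did not go with a direction. Of 342 genes with a core 32.7% were higher and 33.9% lower with SB, and of 10309 genes without one 32.4% were higher and 33.7% lower.

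**Figure D1:**
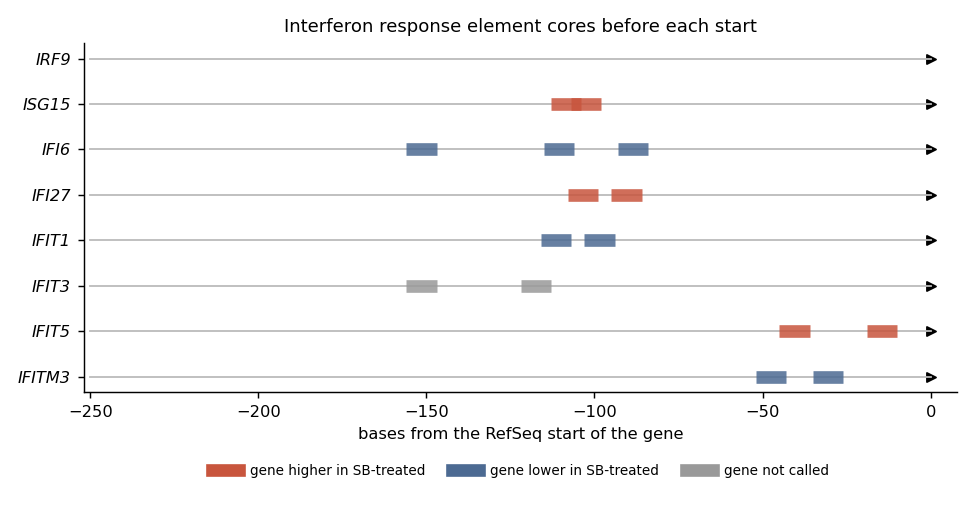
Position of each response element core (bar, 10 bases) in the 250 bases before the first start of each gene in the promoter set. Positions are in bases from the start (arrow), and bars are coloured by whether the gene was higher, lower or not called with SB. For IFI27 this start lies inside the gene span. The 7 genes with cores include genes of each colour, and IRF9 has no core in this window.

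The comparison of SB-treated with control cells asked how these genes stood after a day with SB. They did not move as a block. ISG15, IFI27, IFIT5 and IRF9 were higher, IFI6, IFIT1 and IFITM3 were lower, and IFIT3 was not called, at an adjusted p below 0.05 from limma on log2(RPKM + 1). These are 7 of 8 genes called, 4 higher and 3 lower, while 65.6% of all 14526 genes were called, 33.0% higher and 32.6% lower. For 6 of the 8 genes all SB-treated values lay on one side of all control values, as they did for 61.5% of all genes. Only IFI27 was both called and changed by 0.5 or more on the log2 scale, as were 10.6% of all genes, and its change was below 0.5 without control replicate 1 (0.48) or SB-treated replicate 3 (0.49). With a pseudocount of 0.1 IRF9 met this rule too, beside 18.7% of all genes, and with voom on the recovered reads IRF9 and IFIT1 did, beside 20.7%. The authors kept genes above 1 CPM (reads scaled to library size, not to gene length) in at least 2 libraries, which the recovered reads bear out for 14523 of the 14526 genes. IFI27 passed this filter through the SB-treated libraries only, so its place in these counts depends on its difference. With IFI27 set aside, 3 genes were higher and 3 lower of 7. The median log2 fold change was 0.06 over the 8 genes, with IFI27 included, and 0.00 over all genes. Without control replicate 1 the counts for the 8 were again 4 higher and 3 lower, and without 1 of the other libraries 2 or 3 were higher and 2 or 3 lower. A fold change on this scale is smaller than the ratio of the RPKM values for genes of a few RPKM or less.

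**Figure D2:**
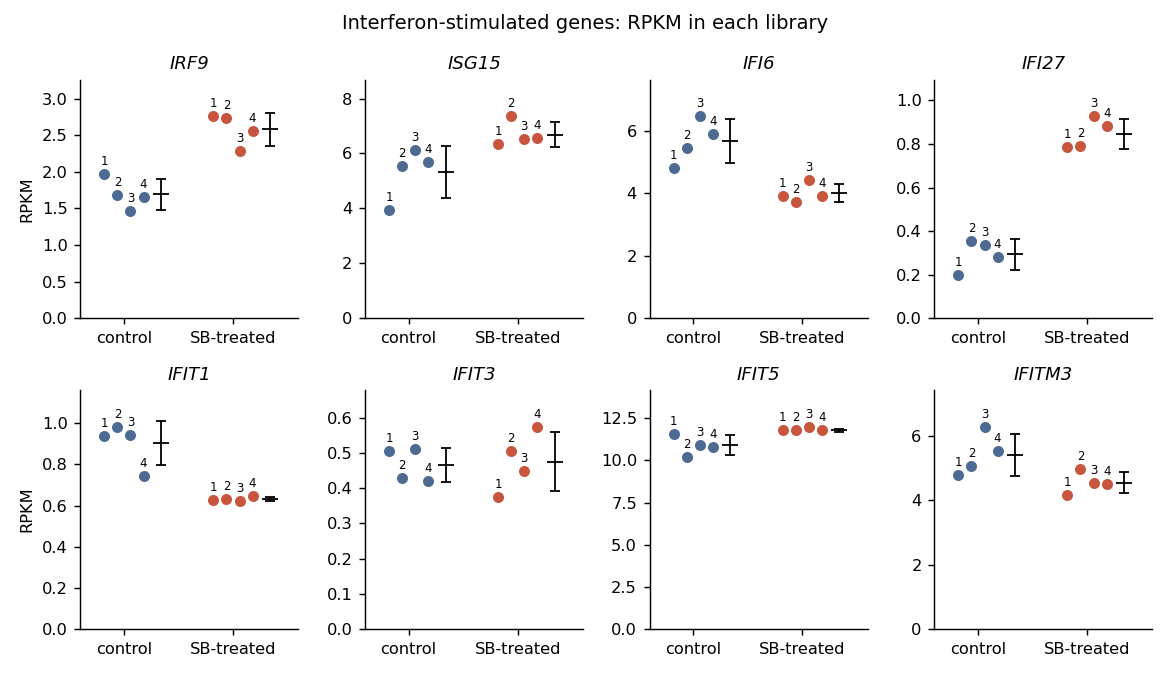
RPKM (vertical axes, from 0) of the 8 genes in each library, numbered by replicate, in control and SB-treated cells, with the mean and SD of each group (n = 4) beside the points. The groups overlap for IFIT3 and IFITM3 and for no other gene shown.

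IRF9 is the DNA-binding subunit of ISGF3 (chr14:24161265-24166565, plus strand). Its level in control replicates 1 to 4 was 1.97, 1.68, 1.47 and 1.65 RPKM. In SB-treated replicates 1 to 4 it was 2.76, 2.74, 2.28 and 2.55 RPKM. Every SB-treated library lay above every control library, and the highest control was replicate 1. The mean rose from 1.69 ± 0.210 to 2.58 ± 0.222 RPKM (SD, n = 4), a ratio of 1.53. The log2 fold change came to 0.41 (SE 0.06, limma, adjusted p = 3.29e-04), and it was 0.46 without control replicate 1.

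ISG15 encodes a ubiquitin-like protein that is joined to other proteins and also secreted (chr1:1013497-1014540, plus strand). It read 3.95, 5.53, 6.14 and 5.69 RPKM in control replicates 1 to 4. It read 6.33, 7.36, 6.53 and 6.55 RPKM in SB-treated replicates 1 to 4. The groups did not overlap, although the highest control and the lowest SB-treated library were close. Control replicate 1 was the lowest library and widened the difference. The log2 fold change came to 0.29 (SE 0.10, limma, adjusted p = 0.0288), and without control replicate 1 it was 0.18 (adjusted p = 0.00828). The call was lost without SB-treated replicate 2 (log2 fold change 0.25, adjusted p = 0.0801), replicate 3 (0.30, adjusted p = 0.0514) or replicate 4 (0.30, adjusted p = 0.0526). Between 112 and 203 reads per library lie behind these values.

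IFI6 and IFI27 encode small hydrophobic proteins of one family. Since IFI27 passed the CPM filter through the SB-treated libraries only, its direction is not set against that of IFI6. IFI6 (chr1:27666064-27672192, minus strand) stood at 4.81, 5.46, 6.48 and 5.92 RPKM in control replicates 1 to 4. With SB it stood at 3.93, 3.74, 4.42 and 3.92 RPKM in replicates 1 to 4. All SB-treated libraries were below all controls, control replicate 1 being the lowest control. IFI6 fell by 0.41 on the log2 scale (SE 0.08, limma, adjusted p = 9.66e-04), from 5.67 ± 0.706 to 4.01 ± 0.292 RPKM (SD, n = 4). Without control replicate 1 the log2 fold change was -0.47.

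IFI27 (chr14:94105894-94116690, plus strand) was the least abundant of the 8 genes in control cells, at 0.199, 0.353, 0.338 and 0.281 RPKM in replicates 1 to 4. With SB it was at 0.786, 0.790, 0.928 and 0.883 RPKM. The groups did not overlap. These values rest on 14 to 23 reads per control library (0.315 to 0.566 CPM) and 50 to 68 reads per SB-treated library (at least 1.35 CPM), so that IFI27 would have no row had the SB-treated libraries been at the control level. The mean went from 0.293 ± 0.0699 to 0.846 ± 0.0704 RPKM (SD, n = 4), a ratio of 2.89, the largest of the 8. The log2 fold change came to 0.52 on log2(RPKM + 1) (SE 0.05), 1.29 with a pseudocount of 0.1 and 1.55 with voom on the recovered reads. At this level the pseudocount of 1 leaves out most of the change in RPKM.

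**Figure D3:**
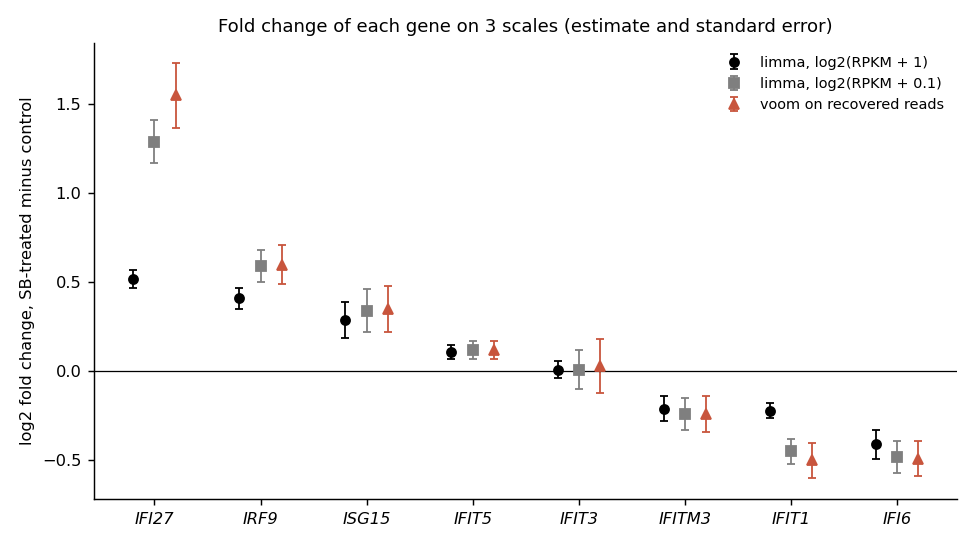
Log2 fold change (vertical axis, SB-treated minus control) with its standard error for the 8 genes, in limma with a pseudocount of 1 or 0.1 and in voom on recovered reads (4 libraries a group). The direction is the same on the 3 scales, and IFI27 spans from 0.52 to 1.55.

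The IFIT genes encode tetratricopeptide repeat proteins, of which IFIT1 and IFIT5 bind the 5′ ends of foreign RNA and IFIT3 stabilises IFIT1. They lie in 1 cluster on chromosome 10, with 51655 bases between IFIT3 and IFIT1 and 8081 bases between IFIT1 and IFIT5. Of the 3 genes with a row, limma called IFIT1 lower and IFIT5 higher, and IFIT3 was not called. IFIT1 (chr10:89392623-89406487, plus strand) read 0.939, 0.983, 0.941 and 0.745 RPKM in control replicates 1 to 4. It read 0.627, 0.633, 0.620 and 0.646 RPKM in SB-treated replicates 1 to 4. The SB-treated libraries were almost level and all below the controls, among which replicate 4 was the lowest. IFIT1 fell by 0.22 on the log2 scale (SE 0.04, limma, adjusted p = 0.00158). The log2 fold change was -0.45 with a pseudocount of 0.1 and -0.50 with voom.

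IFIT3 (chr10:89327997-89340968, plus strand) read 0.505, 0.429, 0.513 and 0.422 RPKM in control replicates 1 to 4. With SB it read 0.376, 0.505, 0.450 and 0.575 RPKM. The SB-treated values enclosed the control values, holding both the lowest and the highest library. The means were 0.467 ± 0.0480 and 0.476 ± 0.0846 RPKM (SD, n = 4), and the log2 fold change of 0.01 was below its standard error of 0.05 (limma adjusted p = 0.895). The reads numbered 41 to 76 per library, and voom gave 0.03 with a standard error of 0.15. The IFIT3 annotation shares 94 exon bases with LIPA on the opposite strand, a gene at 55.4 RPKM in control cells with a log2 fold change of -0.14, and the sources used here do not say whether strand was used in counting.

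IFIT5 (chr10:89414568-89420997, plus strand) was the most abundant of the 8 genes in each library. It read 11.6, 10.2, 10.9 and 10.8 RPKM in control replicates 1 to 4. It read 11.8, 11.8, 12.0 and 11.8 RPKM in SB-treated replicates 1 to 4. The SB-treated values were tightly grouped above the controls, with control replicate 1 just beneath them. Between 1564 and 2215 reads per library lie behind them. The rise was small, with a ratio of means of 1.09, and the log2 fold change came to 0.11 (SE 0.04, limma, adjusted p = 0.0305). Without control replicate 1 it was 0.14 (adjusted p = 0.00120), while leaving out any other library ended the call, with an adjusted p of up to 0.0858. Library sizes without TMM factors gave a log2 fold change of 0.21, in a setting that raises the median of all genes by 0.11.

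IFITM3 encodes a membrane protein that hinders the fusion of viruses with endosomes (chr11:319676-320860, minus strand). It read 4.78, 5.06, 6.28 and 5.53 RPKM in control replicates 1 to 4. It read 4.17, 4.97, 4.53 and 4.51 RPKM in SB-treated replicates 1 to 4. The groups overlapped, since SB-treated replicate 2 was above control replicate 1. IFITM3 fell by 0.21 on the log2 scale (SE 0.07, limma, adjusted p = 0.0296). The call was lost without TMM factors (log2 fold change -0.12, adjusted p = 0.179), with voom on the recovered reads (-0.24, adjusted p = 0.0586) and without control replicate 3 (-0.14, adjusted p = 0.0667), control replicate 4, or SB-treated replicate 1, 3 or 4. IFITM1 and IFITM2 neighbour it and are near-identical in parts, so short reads may be shared among the 3 genes, and their values are uncertain to that extent. IFITM1 went from 20.8 ± 3.10 to 14.6 ± 0.219 RPKM (SD, n = 4) and IFITM2 from 8.56 ± 1.03 to 5.81 ± 0.411 RPKM (SD, n = 4), each with a log2 fold change of -0.48. Both lie outside the rule for named genes and were chosen after their values were seen. IFITM3 also shares 405 and 59 exon bases in GENCODE release 44 with 2 genes without a symbol on the opposite strand. IRF9 shares 1544 with such a gene on its own strand and 521 with one on the opposite strand, IFI6 shares 216 with LINC02574 on its own strand, and ISG15 shares 36 with a gene on the opposite strand. How reads on these bases were counted was not tested.

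In an exact two-sided permutation test of the RPKM values, 4 against 4, the 5 genes other than IFI27 whose groups did not overlap had p = 0.0286, the smallest this design allows. This p only restates that the groups did not overlap, as was so for 61.5% of all genes. The exact permutation p was 0.0571 for IFITM3 and 0.800 for IFIT3.

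The genes kept much of their order of level, per length, between the groups. In control cells IFIT5 came first at 10.9 RPKM, followed by IFI6 at 5.67, IFITM3 at 5.41 and ISG15 at 5.33 RPKM, and the ranges of neighbours among these last 3 overlapped. IRF9 at 1.69, IFIT1 at 0.902, IFIT3 at 0.467 and IFI27 at 0.293 RPKM followed without overlap between neighbours. In SB-treated cells ISG15 at 6.69 RPKM stood clear of IFITM3 at 4.54 and IFI6 at 4.01 RPKM, whose ranges overlapped. IFI27 moved from the last place to the sixth, at 0.846 RPKM, above IFIT1 at 0.631 and IFIT3 at 0.476 RPKM, again without overlap between neighbours. Against the whole table these are low to middling levels. IFIT5 exceeded 57.0% of all genes in control cells, ISG15 39.5% and IFI27 3.62%.

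Inside the groups pairs of genes deviated both together and apart. The Pearson correlation of deviations of log2(RPKM + 1) from the group means was computed for each of the 28 pairs over the 8 libraries, which share depth and composition within a library, and is given as a description. The median was -0.04, and 10 pairs changed sign without control replicate 1, when the median was 0.07 over 7 libraries. ISG15 and IFITM3 deviated together with r = 0.82, and 0.91 without control replicate 1. IRF9 and IFI6 deviated in opposite directions with r = -0.94, and -0.89 without control replicate 1. ISG15 and IFIT5 went from -0.70 to 0.31 when that library was left out.

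**Figure D4:**
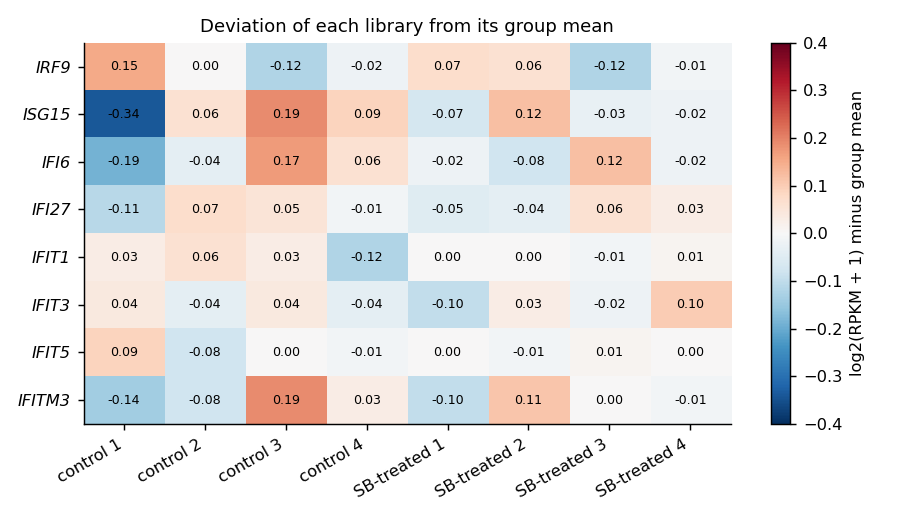
Deviation of log2(RPKM + 1) of each gene (rows) in each library (columns) from the mean of its group, in colour and as a number. Control replicate 1 is low for ISG15 (-0.34), IFI6 (-0.19), IFITM3 (-0.14) and IFI27 (-0.11) and high for IRF9 (0.15) and IFIT5 (0.09).

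Genes of the pathway were examined by role. Each count below stands beside the 65.6% of all genes that were called, 33.0% higher and 32.6% lower, and no list is read as set apart from them. Of 21 interferon genes none has a row in the table. All 6 receptor subunits have a row, and limma called 3 higher and 2 lower. IFNLR1, the subunit particular to the interferon lambda receptor, rose most, from 4.13 ± 0.299 to 6.72 ± 0.137 RPKM (SD, n = 4), with 0.59 as its log2 fold change (limma adjusted p = 4.24e-06). IFNGR1, a subunit of the interferon gamma receptor and the most abundant of the receptor genes, fell from 48.1 ± 4.36 to 39.2 ± 1.02 RPKM (SD, n = 4), with a log2 fold change of -0.28. Of 4 JAK-STAT genes 2 were higher and 2 were not called. JAK1 rose by 0.21 on the log2 scale and TYK2, at 27.6 ± 2.95 RPKM (SD, n = 4) in control cells the most abundant, by 0.20. The TYK2 call was lost without SB-treated replicate 2, 3 or 4, with an adjusted p of up to 0.0831, and without control replicate 1 its log2 fold change was 0.12. The core of the response element was found before none of the receptor or JAK-STAT genes with a promoter in the set (5 and 4 genes).

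Of 8 negative regulators 6 have a row, of which 1 was higher and 3 were lower, with a median log2 fold change of -0.21. The share called, 66.7%, is near the 65.6% of all genes. PTPN1, a phosphatase acting on JAK2 and TYK2, fell by 0.39 on the log2 scale, from 30.8 ± 0.157 to 23.2 ± 0.580 RPKM (SD, n = 4). PTPN11, a phosphatase, rose by 0.19 and was the most abundant of the list, at 66.2 ± 4.39 RPKM (SD, n = 4) in control cells. Of the 9 interferon regulatory factors and binding partners listed here, which leave out IRF9, 7 have a row, and limma called none of the 7, with 0 at an unadjusted p below 0.05 and 0 by voom. IRF2BP2, a co-repressor with IRF2 and the most abundant of this list, was at 52.6 ± 0.787 and 54.9 ± 0.546 RPKM (SD, n = 4) and not called (limma adjusted p = 0.106), but was called without TMM factors (log2 fold change 0.16, adjusted p = 0.00113). Of the ISG15 conjugation genes, which join ISG15 to its targets, 4 of 5 have a row and 2 were lower. HERC5, the main ligase for ISG15, had a log2 fold change of -0.20, from 11.8 ± 0.807 to 10.1 ± 0.145 RPKM (SD, n = 4), while ISG15 itself rose. Without TMM factors HERC5 was not called (log2 fold change -0.11, adjusted p = 0.0583).

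Among genes that sense foreign nucleic acid 6 of 13 have a row, with 2 higher and 2 lower, again 66.7% called beside 65.6% of all genes. TRAF3, an adaptor downstream of several sensors, rose from 8.49 ± 0.102 to 15.1 ± 0.342 RPKM (SD, n = 4), with 0.76 as its log2 fold change (limma adjusted p = 1.98e-07). MAVS, the mitochondrial adaptor of the RNA sensors, rose from 12.2 ± 1.24 to 20.8 ± 0.398 RPKM (SD, n = 4), with 0.72 as its log2 fold change (limma adjusted p = 1.00e-05). TMEM173, which encodes the adaptor STING of DNA sensing, had a log2 fold change of -0.17 at under 1 RPKM, and its call was lost without TMM factors (adjusted p = 0.0749) and without control replicate 2 or 3 or SB-treated replicate 1 or 4 (adjusted p up to 0.0683).

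Of 52 further antiviral effectors 31 have a row, of which 9 were higher and 10 lower with a median log2 fold change of 0.04, and the 61.3% called is below the 65.6% of all genes. Of the 9 higher, 2 passed the CPM filter through the SB-treated libraries only, and of the 10 lower, 1 through the control libraries only. MX1, MX2, OAS1, OAS2, OAS3, OASL and RSAD2 are among the 21 without a row. On log2(RPKM + 1) ZC3HAV1, which binds CpG-rich viral RNA, rose most, from 6.80 ± 0.219 to 10.1 ± 0.164 RPKM (SD, n = 4), with 0.51 as its log2 fold change (limma adjusted p = 1.92e-06). Its ratio of means was 1.49, and 3 less abundant genes of the list that were called higher had a larger ratio. IFI30, a lysosomal thiol reductase, fell most, from 37.5 ± 4.29 to 18.1 ± 0.913 RPKM (SD, n = 4), a ratio of 0.483 (limma adjusted p = 4.80e-06). ADAR, an RNA-editing enzyme and the most abundant of the list, was at 74.9 ± 5.78 and 69.8 ± 0.710 RPKM (SD, n = 4) and not called, but without control replicate 1 its log2 fold change was -0.15 (limma adjusted p = 6.62e-04), and without TMM factors it was 0.01.

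The genes of MHC class I presentation, which show peptides to T cells, have 12 rows, of which 4 were lower and 1 higher, 41.7% called beside 65.6% of all genes, with a median log2 fold change of -0.02. PSMB10, an immunoproteasome subunit, fell from 11.2 ± 2.39 to 6.13 ± 0.396 RPKM (SD, n = 4), with -0.75 as its log2 fold change (limma adjusted p = 7.45e-04), and -0.91 without control replicate 1. B2M, the light chain, had a log2 fold change of -0.52 and the highest RPKM of the list as deposited, at 75.6 ± 8.59 RPKM (SD, n = 4) in control and 52.2 ± 1.26 RPKM (SD, n = 4) in SB-treated cells. ERAP1, a peptidase that trims peptides, rose by 0.33 on the log2 scale. The length by which the reads of TAP1 were divided, 25160 bases, is 5.31 times its exon length in GENCODE release 44, and for B2M the factor is 0.632. RPKM thus understates the level of genes with a high factor, and the order of levels in this list depends on these lengths. Ratios of RPKM between the groups do not depend on the length, while fold changes on log2(RPKM + 1) do. For TAP1 the log2 fold change was 0.03 on that scale and 0.11 with voom.

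**Figure D5:**
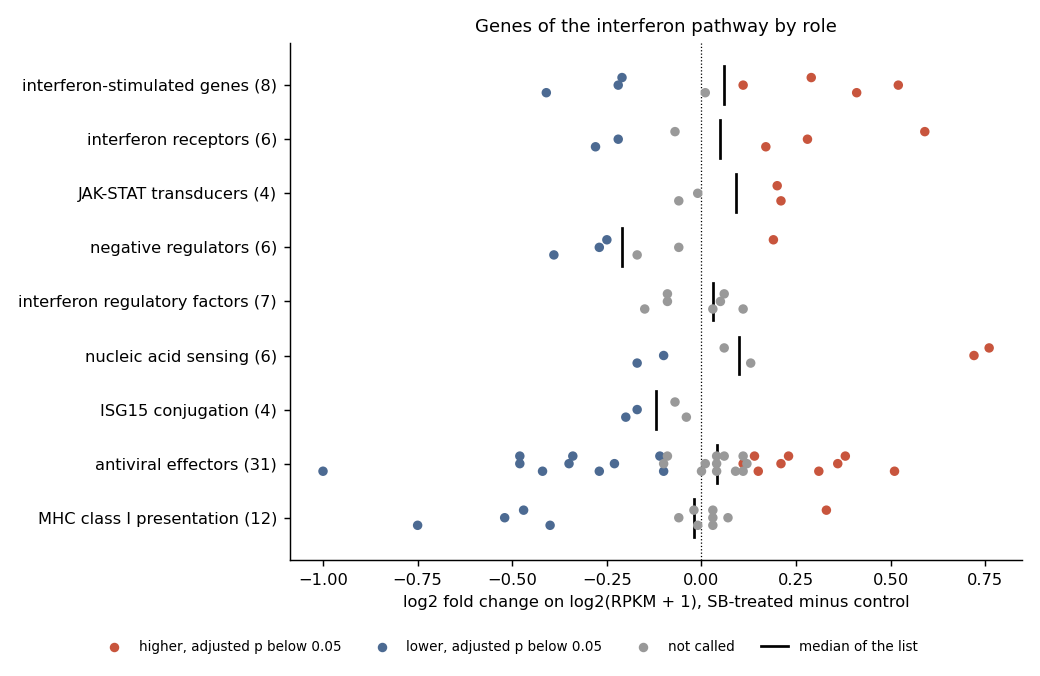
Log2 fold change on log2(RPKM + 1) (horizontal axis) of every gene with a row in each list (number of genes in brackets), coloured by the limma call, with the median of each list as a black line and the median of all genes dotted. No gene shown under interferon regulatory factors was called (IRF9 stands in the first row), the JAK-STAT list holds genes called higher only, that of ISG15 conjugation genes called lower only, and each other list holds both.

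The 5 genes most like ISG15 among the 12545 with a mean of at least 1 RPKM were NUDT14, SPG7, FASTK, CACFD1 and TAB1. The measure was the Pearson correlation of log2(RPKM + 1) over the 8 libraries, which was 0.99 for each. Without control replicate 1 it was between 0.96 for CACFD1 and TAB1 and 0.98 for NUDT14 and FASTK. NUDT14, for example, was at 8.79 RPKM in control and 10.9 RPKM in SB-treated cells, and its log2 fold change was 0.29, and 0.17 without control replicate 1. The 8 points share the contrast between groups and the low value of control replicate 1.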

How the data were processed

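The authors prepared libraries with a stranded total RNA kit, mapped the reads to hg38 with TopHat2 2.1.0, counted them per gene with featureCounts 1.5.0 and required CPM above 1 in 2 or more samples (edgeR 3.16.5, TMM). The deposited values are RPKM per gene and library. The deposited table also holds the authors' own comparison columns (log fold change, mean log CPM, p-value and FDR), which were not used. The members and gene lists were chosen with earlier results of these data known. Some genes of the lists are not reported here and were taken out of the lists and their counts after the results were seen.

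Groups come from the sample labels. Limma 3.58.1 in R 4.3.3 was fitted to log2(RPKM + 1) of all 14526 genes, with no further filter and Benjamini-Hochberg adjustment over all of them, at a threshold of 0.05. The replicates are described as biological, and p-values measure the spread between them. Reads recovered from RPKM were whole within 0.02 reads for 100% of the genes and served for voom and for library sizes without TMM factors. Limma and the recovery were tested on simulated data. The limma simulation changed far fewer genes than were called here and held no library that stands apart. The 8 genes were compared by exact permutation too (scipy 1.17.1). Named genes are the 9 members; of each list the gene with the highest mean RPKM, those with the largest rise and fall past the threshold and those called with a change of 0.5 or more on the log2 scale; and the 5 genes most correlated with ISG15. Alternatives were a pseudocount of 0.1, a mean of at least 0.5 RPKM, median-of-ratios scaling, library sizes without TMM factors, voom, an intensity trend in eBayes, a block for the replicate number, and each library left out in turn. Voom with the block was added after seeing the data. Promoters are from RefSeq (GRCh38.p14) and exon lengths from GENCODE release 44. Proteins were not analysed here.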

Additional observations from a re-analysis of the deposited data

Results flagged for a closer look

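Among 60 groups of 4 values, those of the 30 named genes with a row in control and in SB-treated cells, 8 held a library far from the other 3, and chance gives such a value in about 1 of 20 groups taken singly. That rate is no measure for this count, since the groups share 8 libraries and FASTK and TAB1 were named for their likeness to ISG15, whose lowest library is control replicate 1. None was a value of the 8 interferon-stimulated genes, and 7 of the 8 were control replicate 1. In control replicate 1, TYK2 was at 23.2 RPKM against 28.9 to 29.3 in the other controls, MAVS at 10.4 against 12.7 to 13.0 and IFI30 at 31.1 against 38.7 to 40.2. PSMB10 was at 7.66 RPKM there against 11.9 to 13.0, FASTK at 22.1 against 31.1 to 32.9 and TAB1 at 14.1 against 17.8 to 18.6. PTPN11, at 72.8 RPKM against 63.6 to 64.3, was high in it. SB-treated replicate 2 held FASTK at 38.4 RPKM against 35.1 to 35.5 in the other SB-treated libraries.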

How the results depend on the processing

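The directions of ISG15, IFI6, IFI27, IFIT1, IFIT5, IRF9 and IFITM3 held under every alternative run, and IFI6, IFIT1 and IRF9 also kept their calls. IFI27 kept its call too. It passed the CPM filter through the SB-treated libraries only, so nothing is read from its direction or call here. IFITM3 was not called without TMM factors (-0.12), with voom (-0.24) or with voom and the replicate block (-0.25), and the cause was not tested. IFIT3 was dropped by the filter on mean RPKM. Leaving out each library in turn gave log2 fold changes from 0.18 to 0.36 for ISG15, from 0.09 to 0.14 for IFIT5, from -0.25 to -0.14 for IFITM3 and from -0.02 to 0.04 for IFIT3, whose sign turned, and from 2 to 4 members higher and 2 or 3 lower, with fewer samples in each fit. ADAR, not called, turned to 0.01 without TMM factors. Those library sizes took the list genes called lower from 23 to 15 and those called higher from 18 to 26, and moved the share of called genes that were higher from 50.2% to 65.1%. The replicate numbers were not used as pairs: the deviations of same-numbered libraries correlated with r = 0.38, 0.33, 0.17 and -0.16, not all above 0.1, and 4 of 8 libraries correlated best with their own number. In a fit with the replicate block 4 members were higher and 3 lower, as without it, and 4885 and 4894 of all genes.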
